A study of Mus musculus with 17 samples.

Results

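The noncoding RNA entries are transcripts that the RefSeq catalogue files under names beginning with NR_, the prefix it gives to RNAs not taken to encode a protein. They were measured by mRNA sequencing in mouse vein bypass grafts, where a piece of inferior vena cava from a donor mouse is placed into the carotid artery of a recipient and is exposed to arterial flow. Entries were selected on their measured counts, and an entry was kept when it held at least 50 raw counts in at least 4 of the 13 libraries used here. This gave 229 of 757 NR_ entries, out of 13212 entries in the count tables. The samples were control vena cava that was not grafted (n = 4), grafts explanted 1 h after reperfusion (n = 4) and grafts explanted 6 h after reperfusion (n = 5). All came from male C57BL/6J mice, 10 to 12 weeks old, and no transgene is named. Recipients were given heparin, anaesthetics and painkillers for the operation. The zones next to the anastomoses were removed from the grafts. The 24 h columns outnumber the samples with that label, so 24 h was not analysed here.

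Long noncoding RNAs act as RNAs, and some are known to organise nuclear bodies or to regulate neighbouring genes. Others are known mainly as host genes, whose transcript is spliced or cut to release small RNAs from its introns or exons. Small nucleolar RNAs (snoRNAs) guide the chemical modification of ribosomal RNA and mostly lie in introns of hosts that are themselves noncoding or that encode ribosome and nucleolar proteins. MicroRNAs (miRNAs) are cut from hairpins in host transcripts and pair through a seed, bases 2 to 8, with target mRNAs. The libraries measured the host transcripts, and the mature snoRNAs and miRNAs were not measured.

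By RefSeq gene type, 147 of the 229 entries were long noncoding RNAs, 45 were pseudogenes, 3 were small RNA genes and 11 were noncoding transcripts of genes that also encode a protein. The other 23 had no name in the annotation. Genes for snoRNAs lay inside 18 of the entries and genes for miRNAs inside 15, counted without regard to strand. The 23 unnamed entries could not be searched for such genes or matched to lists by name, so hosts among them would be missed. Of the 152 entries with a matched gene model on the mouse build mm9, 62 overlapped a protein-coding gene. Reads were counted without using strand, so reads of overlapping genes could not be told apart there. The rule used the measured counts and ignored the groups: 48 entries reached 50 counts in all 13 libraries, 15 reached the rule with no control library at 50, and 3 reached it within 1 group alone. The 32 entries with exactly 4 libraries at 50 counts had 358 to 1204 counts in total (median 540), and the 56 entries just outside, with 3 such libraries, had 193 to 749 (median 382).

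Libraries held 8569614 to 11029712 counts in control veins, 7897624 to 8359934 in grafts at 1 h and 10171059 to 11816124 in grafts at 6 h. The 229 entries took between 1.29% and 1.82% of the counts of a library. A single unnamed entry, NR_046233, took 25.8 to 58.3% of those counts, and Malat1 took 12.6 to 43.7%. Replicate 2 of the 1 h grafts and replicate 5 of the 6 h grafts stood apart from the rest by multidimensional scaling, at 4.61 and 1.74 on axis 2, where the other 11 libraries lay between -1.03 and 0.05. The sample titles carry the number 8 for 1 h and 7 for control and 6 h, so a difference between 1 h and either group cannot be told apart from what that number marks. Levels are given as CPM, an entry's counts scaled to a common library total with TMM factors, and changes as log2 fold changes from edgeR's quasi-likelihood test with Benjamini-Hochberg adjustment over all 11123 entries tested. A call is an adjusted p under 0.05, and values with a library left out drop 1 library of the 2 groups compared. Of 11 marker lists, those of neutrophils (5 of 7 measured markers) and platelets (5 of 5) had most markers higher at 6 h against control. In these bulk samples, fewer cells of a type and less RNA per cell cannot be told apart.

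The sequences of the small RNAs encoded in the called hosts show what those loci carry. For the 4 called miRNA hosts, 1 arm of each miRNA is given 5′ to 3′ from RefSeq (GRCm38.p6), with the seed in capitals.
miR-22-3p, in Mir22hg: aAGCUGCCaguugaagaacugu
miR-100-5p, in Mir100hg: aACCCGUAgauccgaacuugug
let-7a-2-3p, in Mir100hg: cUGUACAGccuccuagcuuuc
miR-125b-5p, in Mir100hg: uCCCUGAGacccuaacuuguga
miR-17-5p, in Mir17hg: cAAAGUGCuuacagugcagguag
miR-20a-5p, in Mir17hg: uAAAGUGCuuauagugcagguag
miR-18a-5p, in Mir17hg: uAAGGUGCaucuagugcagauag
miR-19a-3p, in Mir17hg: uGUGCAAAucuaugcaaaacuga
miR-19b-3p, in Mir17hg: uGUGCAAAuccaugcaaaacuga
miR-92a-3p, in Mir17hg: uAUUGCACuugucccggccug
miR-223-3p, in F630028O10Rik: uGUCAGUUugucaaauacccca
miR-17-5p and miR-20a-5p share 1 seed, miR-19a-3p and miR-19b-3p share another, and no other seed in this set is shared. For Mirlet7a-2 the sequences used here held the 3p arm only, so its 5p arm and the seed of that arm are not shown. In the RefSeq gene model Mir17hg contains Mir92-1, and the genes of its other 5 miRNAs lie within 1000 bases of it.

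Hosts of snoRNAs are known for transcripts that begin with a run of pyrimidines, the feature of the mRNAs of ribosomal proteins. The 30 bases around the annotated start (10 before it and 20 from it) are therefore shown for called hosts with such a window. They are given in the sense of the transcript, with the longest run of C and T in capitals (RefSeq, GRCm38.p6).
Snhg1, chr19:8723477-8723506, plus strand: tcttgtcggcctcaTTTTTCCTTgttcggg
Snhg12, chr4:132308668-132308697, plus strand: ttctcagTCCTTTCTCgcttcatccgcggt
2410006H16Rik, chr11:62602867-62602896, plus strand: cgccgTCTTTCTCTgcggccatcatgggat
Snhg15, chr11:6528741-6528770, minus strand: ctgtgaccgtaaCTTTaagcacacgtgagc
Snhg18, chr15:32244643-32244672, minus strand: cccaggCCCCTCCTCTagccccgcctcttc
The run had 9 bases in Snhg1, Snhg12 and 2410006H16Rik, and 7.11% of 32851 annotated starts had a run at least as long. It had 4 bases in Snhg15, a length reached at 68.6% of starts, and 10 bases in Snhg18, which was not called and is shown as the host with the longest run. Hosts that were not called and are not shown had runs from 5 bases (Snhg3) to 8 bases (Rab26os), so long runs were not limited to called hosts. The median over all starts was 4. This is a description of the annotated starts, which were not measured in these libraries.

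The first comparison asks what changes in the graft wall within 1 h of reperfusion. At 1 h, 1 of 229 noncoding entries was higher than in control veins and 0 were lower, where 1.12% and 0.00899% of all entries tested were called higher and lower. With unadjusted p-values under 0.05 edgeR counted 9 higher and 4 lower entries, and the calls of DESeq2 were 3 and 0. The one entry called was Mirt2. The median log2 fold change was -0.05 over the noncoding entries and -0.04 over all entries tested.

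At 6 h, 15 entries were higher and 1 was lower, against 5.58% and 1.59% of all entries tested. Of the 15, 6 had no control library at 50 counts and entered the set through the grafts alone (Mirt2, Gm19510, Gm15441, Hmga2-ps1, Mir17hg and Snhg15). Of these, Gm19510 and Mir17hg reached 50 counts in 6 h grafts only, so the selection itself favours their being higher at 6 h. Leaving out 1 library gave 7 to 11 higher entries, with 7 without graft 6 h replicate 3 or control replicate 2, and 1 to 2 lower. The split was 28 and 6 with DESeq2, and 10 and 6 when counts were scaled to library totals, which moved the median log2 fold change of all entries to -0.46. The median log2 fold change of the noncoding entries was -0.02, beside -0.05 for all entries. The 15 higher entries were 5 snoRNA hosts (Snhg1, Snhg6, Snhg12, Snhg15 and 2410006H16Rik), 4 miRNA hosts (Mir22hg, Mir17hg, Mir100hg and F630028O10Rik), 3 long noncoding RNAs with neither inside (Mirt2, Gm19510 and Gm15441), the pseudogene Hmga2-ps1, a transcript of Srsf7 and the unnamed NR_002840. The lower entry was 5031426D15Rik. Against 1 h, 6 entries were higher at 6 h and 0 were lower (2.63% and 1.02% of all entries). Unadjusted p-values under 0.05 numbered 21 higher and 11 lower, and DESeq2 made 15 and 5 calls. The 6 became 2 without graft 1 h replicate 1, 3 or 4 or graft 6 h replicate 3, and 3 without graft 6 h replicate 5 or with library totals. The 6 called by edgeR were Mir22hg, Mir17hg, Gm19510, 2410006H16Rik, Snhg6 and Snhg12. The comparisons share libraries, so their counts are not independent.

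**Figure D1:**
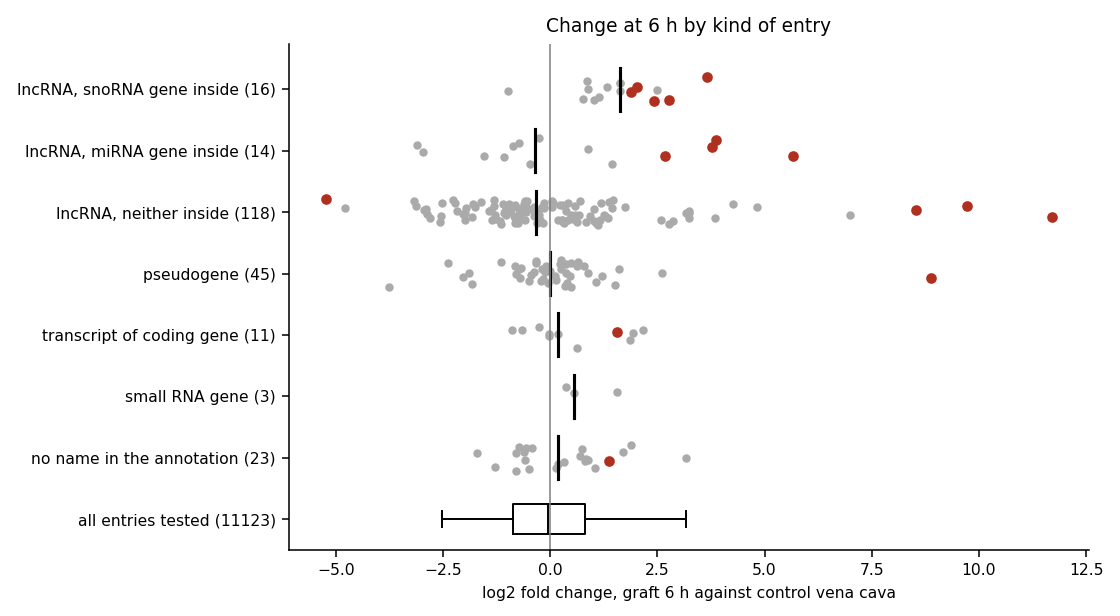
Log2 fold change at 6 h against control vena cava (horizontal axis) for each noncoding entry, by kind of entry, with the number of entries in brackets. Red points are called (adjusted p under 0.05), grey points are not, black lines are medians, and the box gives the median, quartiles and 5th to 95th percentiles of all 11123 entries tested. The median was 1.62 for long noncoding RNAs with a snoRNA gene inside, against -0.32 for those with neither kind of small RNA gene inside.

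Several host genes of snoRNAs were higher at 6 h. Of the 18 entries with a snoRNA gene inside, 5 rose at 6 h and 0 fell, where 5.58% and 1.59% of all entries tested were called higher and lower. Of the 5, Snhg15 had no control library at 50 counts and entered the set through the grafts alone. With the rule of 50 counts in 4 libraries applied to all entries, 608 of 9332 were higher and 192 lower, and the 18 again gave 5 and 0. The median log2 fold change of the 18 was 1.62, beside -0.05 over all entries tested. At 1 h, 0 of the 18 were called in either direction (0 higher and 1 lower at an unadjusted p under 0.05 by edgeR, 0 called by DESeq2) and the median was 0.08. Between 6 h and 1 h the median of the 18 was 1.80, and 3 were higher, beside 2.63% of all entries tested. That count was 0 without graft 1 h replicate 1, 3 or 4 or graft 6 h replicate 3, 1 without graft 6 h replicate 2 or 5 or without both libraries that stood apart, 1 higher and 1 lower with library totals, and 7 higher and 1 lower by DESeq2. The 5 called hosts hold 17 snoRNA genes. The number of hosts called at 6 h against control lay between 3 and 5 when 1 library was left out, with 3 without graft 6 h replicate 3, control replicate 1 or control replicate 2. At 6 h against control DESeq2 called 8 higher and 1 lower. On a list of 23 noncoding snoRNA hosts given by name, 13 were measured, and 4 were higher and 0 lower at 6 h, with a median of 1.33.

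2410006H16Rik (NR_030738, mm9 chr11:62416379-62418309, plus strand) contains Snord49a, Snord49b and Snord65 and had the highest level per kilobase among the hosts, 278 CPM per kilobase over the 13 libraries. Its levels were 37.6, 59.2, 44.3 and 94.5 CPM in control veins, 96.7, 110.5, 73.4 and 70.2 CPM at 1 h, and 165, 213, 308, 159 and 235 CPM at 6 h. Every graft at 6 h lay above every other library. The log2 fold change was 1.88 ± 0.33 (SE) at 6 h against control (adjusted p = 0.00169) and 1.30 ± 0.32 against 1 h (adjusted p = 0.0348). The call against 1 h was lost without graft 1 h replicates 1, 3 or 4 (0.0865, 0.103 and 0.125) or graft 6 h replicates 2, 3 or 5 (0.0622, 0.084 and 0.066).

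Snhg1 (NR_002896, mm9 chr19:8797986-8800932, plus strand) contains 8 snoRNA genes, the most among the called hosts. It had 19.7, 7.58, 8.47 and 22.9 CPM in control veins, 14.5, 18.2, 29.0 and 28.4 CPM at 1 h, and 60.9, 88.1, 136, 60.4 and 45.7 CPM at 6 h. The 6 h grafts did not overlap either other group, and control and 1 h overlapped. The change at 6 h against control was 2.42 ± 0.53 (adjusted p = 0.00934), and at 1 h it was 0.62 ± 0.52 (adjusted p = 0.999). Slc3a2, which encodes the heavy chain of amino acid transporters, lies 127 bases away on the other strand and was not tested.

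Snhg12 (NR_029468, mm9 chr4:131864593-131866939, plus strand) contains Snora16a, Snora44, Snora61 and Snord99. Its levels were 15.7, 5.99, 4.82 and 6.08 CPM in control veins, 4.43, 13.4, 14.0 and 10.1 CPM at 1 h, and 43.8, 66.9, 62.0, 33.8 and 71.8 CPM at 6 h. All 6 h grafts were above all libraries of the other groups. The change was 2.77 ± 0.62 at 6 h against control (adjusted p = 0.0111) and 2.41 ± 0.61 against 1 h (adjusted p = 0.0425). The second call was lost when any library but graft 6 h replicate 4 was left out (adjusted p between 0.0658 and 0.123). Trnau1ap, the neighbouring gene 739 bases away, encodes a selenocysteine tRNA associated protein and had a mean of 23.1 CPM at 6 h and 16.8 CPM in control (log2 fold change 0.46, adjusted p = 0.818).

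Snhg6 (NR_024067), the host of Snord87, had 15, 16.1, 23.6 and 19.6 CPM in control veins, 14.8, 28.3, 13 and 9.30 CPM at 1 h, and 55.6, 65.9, 119, 51.2 and 84.2 CPM at 6 h. The 6 h values lay clear of both other groups. The change was 2.02 ± 0.48 at 6 h against control (adjusted p = 0.0155) and 2.20 ± 0.48 against 1 h (adjusted p = 0.0174). The first call was lost without graft 6 h replicate 3 (0.0504), control replicate 1 (0.0573) or control replicate 2 (0.0507). The second was lost without graft 1 h replicate 1 (0.0654), 3 (0.0579) or 4 (0.0713) or graft 6 h replicate 3 (0.0578).

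Snhg15 (NR_045893, mm9 chr11:6425594-6428763, minus strand) was low outside the 6 h grafts. It had 2.94, 1.31, 3.11 and 3.57 CPM in control veins, 9.56, 2.41, 5.56 and 0.211 CPM at 1 h, and 34.7, 37.5, 37.5, 28.5 and 35.4 CPM at 6 h. The change at 6 h against control was 3.66 ± 0.97 (adjusted p = 0.0298), the steepest of the 5 called hosts by point estimate. The adjusted p was 0.0448 without graft 6 h replicate 4 and between 0.0508 and 0.0853 without any other single library. CACGTG, the motif known as the E-box, occurs in its promoter window, 250 bases before to 50 after the start, and in that of 5730408K05Rik. It occurs in 7.24% of the 27025 promoter windows of RefSeq genes (searched on both strands, where it reads the same) and in 8 of 126 windows of the noncoding entries (6.35%).

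Other snoRNA hosts did not pass the edgeR test, although DESeq2 called Snhg5, Snhg8 and 1110038B12Rik higher at 6 h (adjusted p = 0.0431, 0.00179 and 0.00279). Snhg5 had 54.7, 16.9, 78.8 and 43.7 CPM in control veins, 39.9, 151, 64.7 and 68.1 CPM at 1 h, and 126, 120.0, 142, 135 and 84.9 CPM at 6 h (6 h against control 1.33 ± 0.44, adjusted p = 0.089). Snhg8, the host of Snora24, had 5.87, 14.7, 12.0 and 8.82 CPM in control veins, 17.3, 21.6, 17.2 and 32.1 CPM at 1 h, and 34.6, 30, 40.7, 24.7 and 28.9 CPM at 6 h (1.62 ± 0.58, adjusted p = 0.111). In both genes the 6 h grafts lay above the controls but overlapped the 1 h grafts. For 1110038B12Rik the change at 6 h was 2.5 ± 0.94 (adjusted p = 0.133), and for Snhg3, whose model overlaps the coding gene Rcc1, it was 1.13 ± 0.52 (adjusted p = 0.238).

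Snhg18 (NR_038186), the host of Snord123, lay on the other side. It had 104, 63.4, 61.7 and 82.1 CPM in control veins, 77.9, 75.9, 83.6 and 50.7 CPM at 1 h, and 33.3, 36.5, 40.4, 31.8 and 54.9 CPM at 6 h. The 6 h grafts were all below the controls and overlapped the 1 h grafts. The change at 6 h was -0.98 ± 0.32 and missed the threshold (adjusted p = 0.08), while DESeq2, upper-quartile scaling and library-total scaling called it lower (0.00584, 0.0459 and 0.00825). The next gene, Sema5a, which encodes a semaphorin, averaged 13.9 ± 11.7 CPM at 6 h and 74.0 ± 10.8 CPM in control veins (SD, n = 5 and 4), a change of -2.41 (adjusted p = 0.0439).

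**Figure D2:**
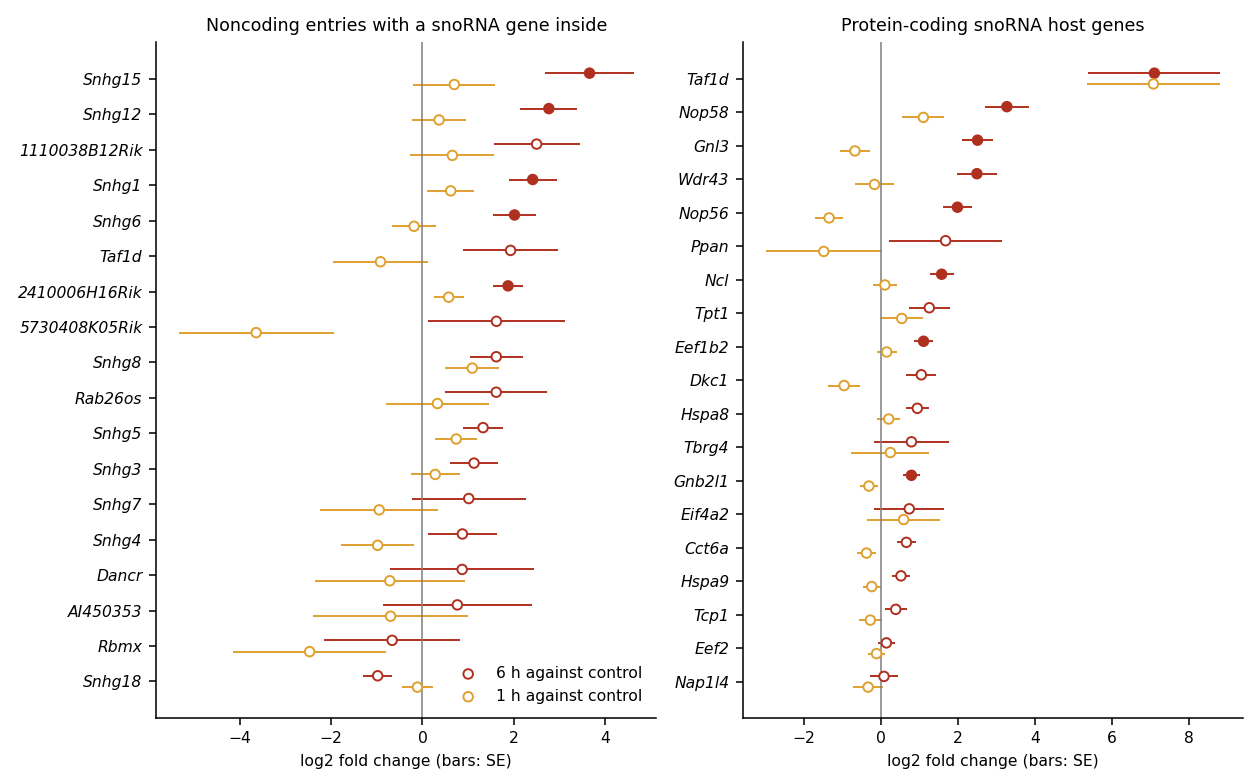
Log2 fold changes against control vena cava (horizontal axis, bars are SE) at 6 h (red) and 1 h (yellow) for the 18 noncoding entries with a snoRNA gene inside (left) and 19 protein-coding snoRNA hosts (right). Filled circles are called (adjusted p under 0.05) and open circles are not: 5 noncoding entries and 8 coding hosts are filled at 6 h, and none at 1 h.

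Protein-coding hosts of snoRNAs were set beside the noncoding ones. Of 21 such genes on a list, 19 were tested through their coding entries. At 6 h, 8 were higher and 0 lower, beside 5.58% and 1.59% of all entries tested, and the median log2 fold change of the 19 was 1.05. At 1 h, 0 of the 19 were called (1 higher and 2 lower at an unadjusted p under 0.05), with a median of -0.17. Against 1 h, 9 of the 19 were higher at 6 h, beside 2.63% of all entries tested. Nop58 and Nop56 encode core proteins of the box C/D snoRNA particle, and Gnl3 encodes the nucleolar protein nucleostemin.

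Nop58 had 42.1, 3.84, 27.4 and 59.1 CPM in control veins, 60.4, 58.9, 95.6 and 69.9 CPM at 1 h, and 393, 484, 324, 196 and 207 CPM at 6 h (6 h against control 3.27 ± 0.57, adjusted p = 0.00182). Gnl3 had 32.3, 69.1, 39.7 and 61.9 CPM in control veins, 20.4, 19.3, 50.6 and 36.7 CPM at 1 h, and 271, 335, 412, 303 and 126 CPM at 6 h (2.51 ± 0.41, adjusted p = 0.000901). For Nop56 the means were 60.8 ± 18.2 CPM in control, 23.9 ± 8.73 CPM at 1 h and 242 ± 86.5 CPM at 6 h (SD, n = 4, 4 and 5), and the change at 6 h was 1.99 (adjusted p = 0.00262). In all 3 genes every 6 h graft was above every other library. Ncl, which encodes nucleolin, changed by 1.58 at 6 h (adjusted p = 0.00451). Taf1d, a subunit of the RNA polymerase I initiation complex, has both kinds of entry. Its coding entry was at 0 in all 4 controls, with 61 counts over the 4 grafts at 1 h and 87 over the 5 at 6 h. The log2 fold changes of this entry were 7.08 at 1 h (adjusted p = 0.0943) and 7.11 at 6 h (adjusted p = 0.024). Between 6 h and 1 h the change was 0.02. The noncoding entry of Taf1d averaged 12.8 ± 2.68 CPM at 6 h and 3.35 ± 3 CPM in control (SD, n = 5 and 4, adjusted p = 0.328).

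Host genes of miRNAs split into called and uncalled loci. Of the 15 entries with a miRNA gene inside, 4 were higher at 6 h and 0 lower, beside 5.58% and 1.59% of all entries tested. The median log2 fold change of the 15 was -0.26. At 1 h, 0 of the 15 were called (2 higher and 0 lower at an unadjusted p under 0.05 by edgeR, 0 called by DESeq2). Against 1 h, 2 were higher at 6 h, beside 2.63% of all entries tested. That number was 1 with upper-quartile or library-total scaling, and 4 by DESeq2. It was also 1 without any single library other than graft 1 h replicate 2 or graft 6 h replicate 2. A list of 25 miRNA hosts given by name had 7 measured, of which 3 were higher and 0 lower at 6 h, with a median of 1.44. The number called at 6 h was 1 or 2 in every fit that left out a library, 1 with upper-quartile or library-total scaling, 4 with DESeq2 and 2 without both libraries that stood apart.

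Mir22hg (NR_030711, mm9 chr11:75275041-75280178, plus strand) is the host of miR-22 and overlaps the coding gene Tlcd2. Its levels were 78.2, 65.9, 46.0 and 62.7 CPM in control veins, 143, 130.0, 125 and 76.2 CPM at 1 h, and 443, 183, 372, 439 and 589.5 CPM at 6 h. All 6 h grafts lay above all 1 h grafts, and 1 h and control overlapped in a single library on each side. The changes were 0.91 ± 0.32 at 1 h against control (adjusted p = 0.342), 2.68 ± 0.33 at 6 h against control (adjusted p = 6.97e-05) and 1.77 ± 0.32 at 6 h against 1 h (adjusted p = 0.00457). Both calls at 6 h held in every alternative run, including each left-out library.

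Mir17hg (NR_029382, mm9 chr14:115442101-115445949, plus strand) is the host of the miR-17-92 cluster, known for its role in proliferating cells. It was low before 6 h, with 0, 0, 0.322 and 1.67 CPM in control veins and 0.35, 0.536, 0 and 0.106 CPM at 1 h. At 6 h it had 30.7, 4.13, 26.1, 32.6 and 37.9 CPM, and the lowest of these was above every other library. Mir17hg reached 50 counts in 6 h grafts only, so the selection itself favours its being higher at 6 h. The change was 5.67 ± 1.63 against control (adjusted p = 0.046) and 6.68 ± 1.72 against 1 h (adjusted p = 0.0444). Against control the call held without graft 6 h replicate 2 (0.0462) or control replicate 4 (0.0234, with a change of 7.82) and was lost without any other library (0.0756 to 0.117). Against 1 h it held without graft 6 h replicate 2 (0.0493) and was otherwise lost (0.0732 to 0.126), and the change was 7.33 without graft 1 h replicate 2.

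Mir100hg (NR_015483) carries Mir100, Mirlet7a-2 and Mir125b-1 in its RefSeq gene model (GRCm38.p6). There Mir100 starts at chr9:41531437 and Mir125b-1 ends at chr9:41582001. The matched mm9 model (mm9 chr9:41388824-41400910, plus strand) is shorter than that stretch and cannot hold all of these miRNA genes. Mir100hg had 5.78, 3.65, 1.18 and 5.93 CPM in control veins, 8.28, 0, 5.02 and 1.80 CPM at 1 h, and 65.5, 31.3, 113, 40.1 and 32.0 CPM at 6 h. The 6 h grafts lay clear of both other groups. The change was 3.76 ± 1.07 against control (adjusted p = 0.0439) and 3.89 ± 1.08 against 1 h (adjusted p = 0.0618). The call against control was lost without any of the 9 libraries of the 2 groups (0.0557 to 0.119) and with upper-quartile (0.0538) or library-total scaling (0.0698).

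F630028O10Rik (NR_030718, mm9 chrX:93435281-93438975, plus strand) contains Mir223, whose miRNA is known as a myeloid one, abundant in neutrophils. It had 3.94, 0.187, 9.97 and 11.3 CPM in control veins, 106, 11.1, 38.8 and 3.59 CPM at 1 h, and 57.7, 50.9, 159.6, 17 and 178 CPM at 6 h. The 6 h grafts lay above the controls, and the 1 h grafts overlapped both groups. The change was 3.86 ± 1.12 at 6 h (adjusted p = 0.0474) and 2.64 ± 1.08 at 1 h (adjusted p = 0.476). The call held without graft 6 h replicate 4 (0.0377) and was lost without any other library (0.0598 to 0.129). Of 8 neutrophil markers, 7 were in the tables, and 5 of them were higher at 1 h and 5 at 6 h. Their summed level was 29.1 to 74.4 CPM in control veins, with Csf3r at 0 in all 4, 1139 to 9972 CPM at 1 h and 3163 to 58214 CPM at 6 h. Their part in this result was not tested.

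**Figure D3:**
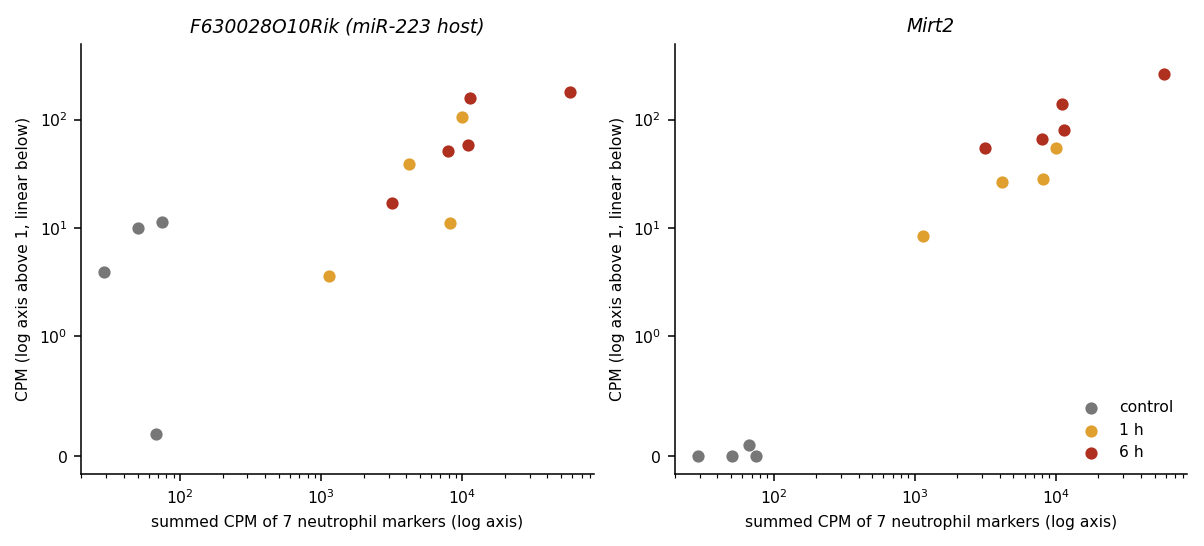
Level of F630028O10Rik (left) and Mirt2 (right) in each library (vertical axis, CPM) against the summed CPM of 7 neutrophil markers (horizontal log axis), for control vena cava (grey), 1 h (yellow) and 6 h (red). The 4 controls lie at 29.1 to 74.4 CPM of neutrophil markers, and the graft with the most (58214 CPM, 6 h) has the highest level of both RNAs, 178 and 261 CPM.

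Uncalled miRNA hosts lay on both sides of 0. Carmn, the host of miR-143 and miR-145, which are known from smooth muscle, had 11.7, 25.9, 9 and 3.27 CPM in control veins, 1.63, 0.134, 16.4 and 5.81 CPM at 1 h, and 6.78, 0.188, 0, 0.212 and 0 CPM at 6 h. Its change at 6 h was -3.10 ± 1.70 (adjusted p = 0.342), with replicate 1 the only 6 h graft above the controls' lowest level. Without that graft the change was -6.75 (adjusted p = 0.0401). The summed level of 3 smooth muscle markers was 301 to 626 CPM in control veins, 452 to 740 CPM at 1 h and 175 to 378 CPM at 6 h, with 0 of the 3 called against control, and its part was not tested. Dnm3os, the host of miR-199a and miR-214, changed by -1.08 at 6 h (adjusted p = 0.81), Mir99ahg by -1.63 (adjusted p = 0.551) and Dleu2, the host of miR-15a and miR-16, by 1.44 (adjusted p = 0.587).

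The largest change of any noncoding entry was in Mirt2 (NR_045747), named for myocardial infarction and known as a long noncoding RNA that bacterial endotoxin induces in macrophages. It had 0, 0.0936, 0 and 0 CPM in control veins, which is 1 count in all 4 libraries. At 1 h it had 54.4, 28, 26.4 and 8.35 CPM, and at 6 h 138, 66.5, 80.4, 55.1 and 261 CPM. Every 6 h graft was above every 1 h graft, and every 1 h graft was above every control. Scaled to depth, the ratio of counts to control was 1267 at 1 h, with a 95% counting interval of 227 to 50081. At 6 h this ratio was 5104, with an interval of 916 to 201620. These intervals cover counting error only. The fitted log2 fold changes, which depend on the prior count, were 9.67 ± 1.01 at 1 h (adjusted p = 4.77e-05) and 11.71 ± 1.05 at 6 h (adjusted p = 2.99e-06). Without control replicate 2, which holds the single count, they were 11.14 and 13.16. From 1 h to 6 h the difference of 2.04 ± 0.62 was not called (adjusted p = 0.0925). Both calls against control held in every alternative run. The neutrophil markers given above moved with it, and their part was not tested.

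Gm19510 (NR_045076) was seen at 6 h with 14.1, 24.4, 10.6, 8.58 and 11.8 CPM. It had 0, 0, 0.107 and 0 CPM in control veins and 0 counts in all 4 grafts at 1 h. The ratio of scaled counts at 6 h to control was 632 (95% counting interval 113 to 25013), and the level at 6 h was at least 166-fold higher than at 1 h, with 3 counts over the 1 h group as the floor. The tests gave an adjusted p of 0.00913 against control and 0.00988 against 1 h, and both calls held in every alternative run. Gm19510 reached 50 counts in 6 h grafts only, so the selection itself favours both calls, whichever library is left out. Without control replicate 3 the fitted change against control was 10.07, beside 8.53 with it, and against 1 h it was 9.27 by DESeq2, beside 10.06. Trib1, the next gene in RefSeq order, encodes a pseudokinase: it had 0.183, 15.9, 40.0 and 9.73 CPM in control veins, 172, 397, 341 and 265 CPM at 1 h, and 252, 325, 314, 196 and 189 CPM at 6 h. Trib1 was thus higher at both times (4.16 and 3.96, adjusted p = 0.0192 and 0.00641), while Gm19510 had no count at 1 h. The promoter window of Gm19510 was the only one of 10 called entries to hold TGACTCA, the AP-1 motif, which occurs on either strand in 5.17% of all windows.

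**Figure D4:**
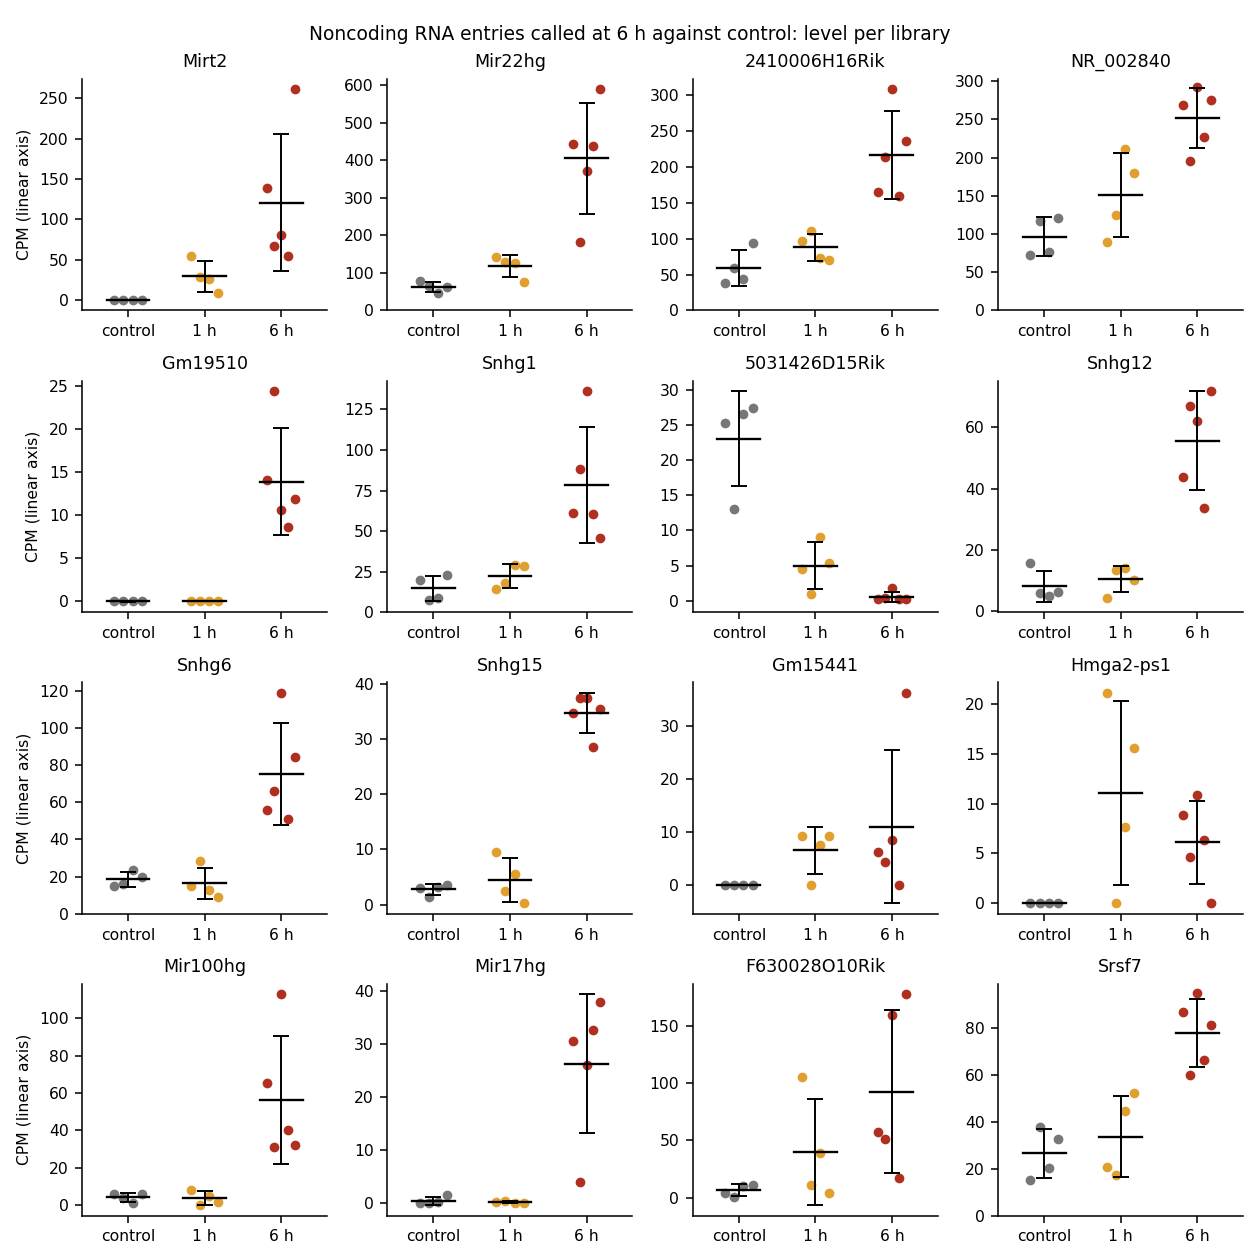
CPM per library (vertical linear axes, each scaled to its gene) of the 16 entries called at 6 h, ordered by p, in control vena cava (grey), 1 h (yellow) and 6 h (red). Lines are means and bars SD. Mirt2 is raised at both times, 5031426D15Rik is the one that falls, and Gm15441 and Hmga2-ps1 each have a 6 h graft at 0.

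A list of long noncoding RNAs known from stress and inflammation had 8 of its 23 names among the entries. Of these 8, 1 was higher at 1 h (Mirt2) and 2 at 6 h (Mirt2 and Mir22hg), 0 were lower, and the median log2 fold change at 6 h was 2.22. Over all entries tested, 1.12% were called higher at 1 h and 5.58% at 6 h. Pvt1 (mm9 chr15:61869542-62209651), which lies beside Myc, had 0, 9.83, 3.54 and 1.37 CPM in control veins, 1.28, 0, 10.9 and 5.28 CPM at 1 h, and 71.0, 34.5, 62.2, 48.0 and 48.6 CPM at 6 h. Morrbid, known for sustaining short-lived myeloid cells, had 4.50, 3.84, 2.36 and 0.76 CPM in control veins, 8.17, 0, 6.00 and 3.17 CPM at 1 h, and 16.9, 15.7, 40.2, 16.5 and 46.4 CPM at 6 h. In both RNAs the 6 h grafts lay above all other libraries, and neither passed the test (3.84 ± 1.36, adjusted p = 0.109, and 3.24 ± 1.19, adjusted p = 0.124). DESeq2 called both higher, and Morrbid was also called when the fit held only the 2 groups compared (adjusted p = 0.0404).

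Ptgs2os (mm9 chr1:151922003-151947004, minus strand) lies 250 bases from Ptgs2, the gene of cyclooxygenase-2, on the other strand. It had 1.93, 23.1, 0 and 0 CPM in control veins, 1.17, 0, 0.109 and 0.845 CPM at 1 h, and 18.4, 10.4, 42.7, 18.9 and 15.5 CPM at 6 h. Control replicate 2 lay inside the range of the 6 h grafts, and the changes of -3.52 at 1 h (adjusted p = 0.698) and 1.76 at 6 h (adjusted p = 0.622) were not called. Ptgs2 itself averaged 2.99 ± 3.02 CPM in control veins, 216 ± 100.2 CPM at 1 h and 2057 ± 412 CPM at 6 h (SD, n = 4, 4 and 5). Its changes were 6.18 at 1 h (adjusted p = 6.3e-05) and 9.44 at 6 h (adjusted p = 1.05e-06).

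5031426D15Rik (NR_027890) was the one noncoding entry that fell. It had 25.2, 13, 26.5 and 27.4 CPM in control veins, 4.55, 0.938, 9.06 and 5.39 CPM at 1 h, and 0.199, 0.469, 1.87, 0.212 and 0.252 CPM at 6 h. The controls lay above both graft groups, which overlapped each other. The change was -5.24 ± 1.14 at 6 h (adjusted p = 0.00934) and -2.21 ± 1.09 at 1 h (adjusted p = 0.676), and the first was -6.28 without graft 6 h replicate 3. The summed level of 4 mesothelial markers (Msln, Upk3b, Lrrn4 and Wt1) was also lower at 6 h, at 103 to 144 CPM against 427 to 569 CPM in control veins, and 1 of the 4 was called lower. At 1 h that sum was 118 to 586 CPM. The summed levels of 4 fat cell markers (3267 to 4949 CPM at 6 h against 5533 to 7564 CPM in control) and 5 fibroblast markers (1069 to 1623 CPM against 1688 to 2812 CPM) were lower at 6 h too, with 1 marker of each list called lower. The part of these cell types in the result was not tested.

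Gm15441 and Hmga2-ps1 were at 0 counts in all 4 controls. Gm15441 (NR_040409, mm9 chr3:96359688-96370724, minus strand) lies across Txnip, the gene of thioredoxin interacting protein on the other strand, which was not analysed here. Reads were counted without using strand, so reads of Gm15441 and Txnip could not be told apart. Gm15441 had 9.33, 0, 7.64 and 9.30 CPM at 1 h and 6.18, 4.32, 8.46, 0 and 36.2 CPM at 6 h. Hmga2-ps1 (NR_037996), a pseudogene of the chromatin protein gene Hmga2, had 21.1, 0, 7.64 and 15.5 CPM at 1 h and 8.88, 4.69, 10.8, 6.36 and 0 CPM at 6 h. Each had 1 graft at 0 in both groups, so the grafts overlapped the controls at 0. The folds at 6 h pool the counts of all 6 h grafts, and for Gm15441 replicate 5 (36.2 CPM) lay far above the others (0 to 8.46 CPM). With 3 counts over the controls as the floor, the pooled 6 h level was at least 148-fold higher for Gm15441 (adjusted p = 0.0365). For Hmga2-ps1 it was at least 91.2-fold higher (adjusted p = 0.0419). Leaving out the 6 h graft at 0 gave an adjusted p of 0.0191 for Gm15441 and 0.0257 for Hmga2-ps1. Leaving out any other library ended the call (0.0527 to 0.085 for Gm15441 and 0.0606 to 0.0934 for Hmga2-ps1). The fitted 6 h change of Gm15441, which depends on the prior count, was 9.73, and it was 8.54 without graft 6 h replicate 5, its highest library, and 8.58 without both libraries that stood apart. At 1 h the fitted changes were 8.98 for Gm15441 and 9.73 for Hmga2-ps1, which edgeR did not call (adjusted p = 0.174 and 0.116). DESeq2 called both at 1 h (0.00169 and 0.00022), and edgeR called Hmga2-ps1 without both libraries that stood apart (0.0133).

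Long noncoding RNAs of the nucleus were not called. A list had 6 measured entries of 5 RNAs (Malat1, Neat1, Norad, Firre and Tug1, which has 2 entries). Of the 6 entries, 0 passed at either time (0 higher and 2 lower at an unadjusted p under 0.05 at 1 h, 0 and 1 at 6 h, with 0 called by DESeq2), and the median over entries was -0.61 at 1 h and -0.48 at 6 h. Malat1 (mm9 chr19:5795690-5802671, minus strand), a component of nuclear speckles, had the highest level per kilobase of all noncoding entries with a length, 569 CPM per kilobase. It had 3492, 6187, 2681 and 3647 CPM in control veins, 2588, 2142, 5496 and 4771 CPM at 1 h, and 6449, 2957, 2301, 3921 and 5030.2 CPM at 6 h, with full overlap and changes of -0.09 and 0.05. Neat1 (mm9 chr19:5824708-5845478, minus strand), the scaffold of paraspeckles, had 502, 367, 101 and 218 CPM in control veins, 60.7, 43.8, 133 and 163 CPM at 1 h, and 121, 170.2, 161, 114 and 157 CPM at 6 h. Its changes of -1.57 ± 0.46 at 1 h and -1.03 ± 0.43 at 6 h missed the threshold (adjusted p = 0.192 and 0.177), and control replicate 3 lay inside the range of the grafts.

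Of 9 tested coding genes for paraspeckle proteins, 1 was higher at 6 h and 0 lower, beside 5.58% and 1.59% of all entries tested. The higher one was Sfpq, an RNA-binding protein that also has a noncoding entry. Its coding entry averaged 95.8 ± 45.1 CPM at 6 h and 30.2 ± 9.57 CPM in control (1.67 ± 0.45, adjusted p = 0.0337), and its noncoding entry 104 ± 44.2 and 67.6 ± 29.3 CPM (0.62 ± 0.39, adjusted p = 0.428, SD over 5 and 4 libraries). Tug1 has 2 entries on the same mm9 span, with changes of -0.81 and -0.16 at 6 h, neither called. How the counting divided reads between entries of 1 locus is not known, so values of such entries are uncertain. The imprinted list held 2 measured RNAs, Kcnq1ot1 (0.94 at 6 h, adjusted p = 0.554) and Peg13 (0.17, adjusted p = 0.9), with 0 called at any time, with no unadjusted p under 0.05 and no DESeq2 call.

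The order of levels per kilobase after Malat1 was Mir682 (538 CPM per kilobase), 2410006H16Rik (278), Norad (177), Mir22hg (110.1), Mir703 (93.2), Gm15421 (92.0), Snhg5 (87.3), Rps4l (62.8) and Snord104 (58.5). These are means over 13 libraries, which hide the spread between groups given for the called genes. The model matched to Norad has 339 bases and those of Mir682, Mir703 and Snord104 have 96, 108 and 70, so these values per kilobase rest on short models. Mir703 lies within the translation elongation factor gene Eef1a1, and reads of the 2 cannot be told apart. Mir682 averaged 44.7 ± 4.11 CPM in control veins, 51.2 ± 8.78 CPM at 1 h and 57.5 ± 6.09 CPM at 6 h (SD, n = 4, 4 and 5), and none of the 3 small RNA genes was called in any comparison (no unadjusted p under 0.05 by edgeR, no DESeq2 call).

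Pseudogenes gave 1 call of 45 at 6 h, Hmga2-ps1, beside 5.58% higher and 1.59% lower among all entries tested. The median log2 fold change of the pseudogenes was -0.02, with a range of -3.77 to 8.89. Reads of a pseudogene and of its parent gene can be near-identical, so these values are uncertain. Among the 11 noncoding transcripts of coding genes, 1 was called. This entry of Srsf7 (NR_036615, mm9 chr17:80599429-80606629, minus strand), the gene of a splicing factor, had 15.2, 37.9, 20.2 and 32.7 CPM in control veins, 20.8, 17.1, 44.7 and 52.1 CPM at 1 h, and 87.0, 59.9, 94.8, 66.2 and 81.4 CPM at 6 h. The 6 h grafts lay above all other libraries (1.55 ± 0.45, adjusted p = 0.0478), and the call was lost without any of the 9 libraries of the 2 groups (0.0518 to 0.142). No coding entry of Srsf7 was listed beside this one, so reads of its coding mRNA may be counted here. Whether a noncoding transcript of Srsf7 rose was not tested.

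Of the 23 unnamed entries, NR_002840 was called. Without a name it could not be searched for snoRNA or miRNA genes, so whether it is a host is not known here. It had 72.8, 116, 76.6 and 121 CPM in control veins, 89.6, 124, 211 and 179 CPM at 1 h, and 269, 196, 292, 227 and 276 CPM at 6 h. The 6 h grafts lay above all controls and overlapped the 1 h grafts. The change at 6 h was 1.38 ± 0.29 (adjusted p = 0.00678), and the call was lost with library-total scaling (0.0598). NR_046233, the most abundant unnamed entry, had 5465, 3655, 4914 and 5372 CPM in control veins and 5977, 7618, 8982, 6701 and 10038 CPM at 6 h. Its change of 0.70 ± 0.20 missed the threshold (adjusted p = 0.0517). The kind of RNA behind NR_046233 was not resolved, so it cannot be taken for a long noncoding RNA. At 1 h NR_046233 took 58.3, 58.3, 39.0 and 42.5% of the counts of the noncoding entries. That share was 25.8 to 41.6% in control veins and 33.0 to 49.2% at 6 h, so a higher share was not limited to 6 h.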

How the data were processed

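Tissue was sequenced with a low-input kit that primes on the poly(A) tail. Quality control by the authors used FastQC 0.11.5, the alignment was to mm9, and HTSeq 0.5.4p3 counted reads per UCSC transcript entry without regard to strand. The deposited tables hold these raw counts for whole groups, beside the authors' own DESeq2 1.14.1 fold changes and p-values, which were not used. The 30 columns of 24 h were not used. Samples were grouped by perfusion time. Where nothing says that libraries came from separate mice, p-values measure only the spread between these samples. Counts were fitted across 13 libraries with edgeR 4.0.16 (R 4.3.3, limma 3.58.1, TMM, filterByExpr, robust 2-sided quasi-likelihood test, Benjamini-Hochberg), which kept 11123 entries and all 229 noncoding entries described. The biological coefficient of variation was 1.03. The test was also run on simulated counts. The settings and result of that run are not given here, so it does not show how the test performs at this variation. Alternatives were DESeq2 1.42.0, other scalings, filters and fits, and leaving out libraries. Named genes were those called in any comparison, the 12 highest per kilobase, the members of fixed lists and neighbours of these. The entries and lists were chosen with earlier results of these data known. Of the entries, 206 were named by matching to RefSeq (GRCm38.p6), and mm9 coordinates came from GENCODE models.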

Additional observations from a re-analysis of the deposited data

Results flagged for a closer look

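Libraries far from the rest of their group were sought by Dixon's test in 139 groups of libraries of the named entries, where chance alone flags about 1 in 20. It picked out 11 values, 4 of them in graft 6 h replicate 3. In that graft Gm15421 had 66.2 CPM (36.8 to 43.7 in the other 6 h grafts), Ptgs2os 42.7 CPM (10.4 to 18.9), Firre 28.9 CPM (0 to 6.47) and 5031426D15Rik 1.87 CPM (0.199 to 0.469). In graft 6 h replicate 5, Gm15441 had 36.2 CPM (0 to 8.46). In graft 6 h replicate 1, Carmn had 6.78 CPM (0 to 0.212). In graft 1 h replicate 3, Snhg4 had 14.2 CPM (4.23 to 5.36 in the other 1 h grafts). Among controls, replicate 2 had 23.1 CPM of Ptgs2os (0 to 1.93 in the others) and 13 CPM of 5031426D15Rik, the only low value (25.2 to 27.4). Control replicate 4 had 15.9 CPM of Dleu2 (0.643 to 2.57), and control replicate 1 had 15.7 CPM of Snhg12 (4.82 to 6.08).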

How the results depend on the processing

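Of 23 calls over the 3 comparisons, 11 held without each library in turn and 10 held in every alternative. For the 48 named entries, 2527 alternative values gave 0 reversed calls, 109 lost calls and 24 gained ones. Higher entries at 1 h numbered 1 in the fit reported, 3 with DESeq2, 2 without both libraries that stood apart (chosen after seeing the data) and 1 to 2 when 1 library was left out. Higher entries at 6 h numbered 15, with 28 by DESeq2 and 7 to 11 when 1 library was left out, the lowest without graft 6 h replicate 3 or control replicate 2. The 1 lower entry at 6 h became 6 with DESeq2, 2 with upper-quartile scaling, 6 with library totals, 2 without both libraries and 1 to 2 with 1 left out. Entries higher at 6 h against 1 h numbered 6, with 15 by DESeq2, 3 with library totals and 2 to 6 with 1 library left out (2 without graft 1 h replicates 1, 3 or 4 or graft 6 h replicate 3), and lower entries numbered 0, with 5 by DESeq2, 1 with library totals and 0 with 1 left out. The causes were not tested. Requiring at least 10 or 100 counts in 4 libraries would give 469 or 135 entries in place of 229, and 50 counts in all 13 libraries 48. No paired analysis was possible because the column names carry no replicate number that matches a sample title. Groups of 4 and 5 libraries with a coefficient of variation of 1.03 limit what could be called, above all for entries with few counts.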
